A study of Homo sapiens with 70 samples.

Results

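Messenger RNA of 10 genes that decide whether mitochondria trigger cell death was followed in a pancreatic cancer line over 5 days of culture, with and without knockdown of ZBTB11. They are the pro-survival genes MCL1 and BCL2L1, the BH3-only genes BCL2L11, PMAIP1, BBC3 and BID, the effectors BAX and BAK1, and XIAP and APAF1, which act on caspases. The genes were found by their symbols in the deposited count table, where all 10 were present among 78932 genes. The cells were a sotorasib-resistant form of MIA PaCa-2, an established line of pancreatic ductal adenocarcinoma, and every group carried dCas9-KRAB, a dead Cas9 fused to a repressor domain that doxycycline (DOX) switches on. They also carried 1 of 3 guide RNAs: sgZBTB11 #1 or sgZBTB11 #2, both against the zinc finger gene ZBTB11, or the control guide sgNS. Each guide was given DOX or its vehicle DMSO and harvested at 5 hr, day 1, day 3 and day 5, which makes 24 groups and 70 poly(A) RNA libraries. There were 3 libraries in 22 groups, and 2 in sgNS with DMSO at day 1 and in sgZBTB11 #1 with DMSO at day 5. The labels do not say whether a group's libraries are from separate cultures. The p-values therefore rest on the spread between the libraries alone, and that spread may be technical.

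In the mitochondrial pathway of apoptosis, BH3-only proteins sense damage or stress and bind the pro-survival proteins, and some of them also activate BAX and BAK directly. Freed BAX and BAK open pores in the outer mitochondrial membrane, cytochrome c escapes, and APAF1 assembles with it into the apoptosome, a wheel that activates caspase-9. XIAP binds and inhibits caspases, and in pancreatic cancer cells the pro-survival proteins MCL1 and BCL-xL, the product of BCL2L1, are known to restrain death by targeted drugs.

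The bases before the start of transcription of 4 of the genes are shown because they belong to members that moved in different directions with culture time: APAF1 rose up to day 3, while BAK1, BAX and PMAIP1 fell between day 1 and day 3. The sequences are RefSeq's for GRCh38.p14, run 5′ to 3′ toward the start, and cover the 250 bases before it, with matches to the motifs searched in capitals. The windows lie at chr12:98645040-98645289 on the plus strand, chr6:33580277-33580526 on the minus strand, chr19:48954625-48954874 on the plus strand and chr18:59899746-59899995 on the plus strand.
APAF1: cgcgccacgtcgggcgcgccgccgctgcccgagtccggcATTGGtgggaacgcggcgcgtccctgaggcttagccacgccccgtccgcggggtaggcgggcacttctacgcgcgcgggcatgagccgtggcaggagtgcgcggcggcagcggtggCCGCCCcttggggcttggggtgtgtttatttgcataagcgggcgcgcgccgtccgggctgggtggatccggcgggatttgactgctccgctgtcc
BAK1: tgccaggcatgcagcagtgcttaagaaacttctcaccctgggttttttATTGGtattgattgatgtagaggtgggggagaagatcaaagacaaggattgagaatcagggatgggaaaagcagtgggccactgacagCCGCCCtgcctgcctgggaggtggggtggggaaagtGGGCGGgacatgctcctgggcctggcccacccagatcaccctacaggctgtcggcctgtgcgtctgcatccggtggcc
BAX: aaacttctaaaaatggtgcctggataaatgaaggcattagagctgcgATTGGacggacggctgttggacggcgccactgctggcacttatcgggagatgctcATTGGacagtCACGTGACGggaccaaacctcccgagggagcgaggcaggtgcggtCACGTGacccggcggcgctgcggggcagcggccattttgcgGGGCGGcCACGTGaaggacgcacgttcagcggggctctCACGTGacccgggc
PMAIP1: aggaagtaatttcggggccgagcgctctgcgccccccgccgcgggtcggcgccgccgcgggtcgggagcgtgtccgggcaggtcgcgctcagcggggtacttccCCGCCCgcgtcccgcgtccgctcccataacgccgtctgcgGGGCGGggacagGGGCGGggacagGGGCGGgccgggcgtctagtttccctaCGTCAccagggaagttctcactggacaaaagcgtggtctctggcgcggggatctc
Motifs were searched on both strands, and the share of all 34788 windows of this length that hold each is given as background. They were the CRE core TGACG (21.2% of windows), the E-box CACGTG (6.31%), CCAAT (32%), the GC box GGGCGG (42.6%), the FOXO site GTAAACA (2.98%), the E2F sites TTTGGCGC or TTTCCCGC (1.93%) and TATAAA (10.8%). The APAF1 window held 1 CCAAT and 1 GGGCGG, and that of BAK1 1 CCAAT and 2 GGGCGG. The BAX window held 4 CACGTG, 2 CCAAT, 1 GGGCGG and 1 TGACG that overlaps a CACGTG, and that of PMAIP1 4 GGGCGG and 1 TGACG. Their GC content was 73.6% for APAF1, 58% for BAK1, 62.8% for BAX and 72.8% for PMAIP1, beside a median of 58% over all windows. Of the 10 genes 9 had at least 1 window in the table, and a match describes letters only.

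Library totals ran from 12068842 to 20627642 counts. Among the markers of the line, the keratin genes KRT8 and KRT18 and the filament gene VIM were high, with day 5 medians of 357, 1010.4 and 3489 TPM (relative abundance of transcripts, per length) over the DMSO libraries, and KRT19 had 50.4 TPM. The epithelial adhesion gene EPCAM was at or near 0, with a DMSO median of 0 at each time and at most 0.13 TPM. The 12 markers of acinar, endocrine, immune, stromal and endothelial cells summed to at most 7.41 TPM in any library. Transcripts of mitochondrial DNA took 11.9% to 14.3% of counts at 5 hr, 9.91% to 12.6% on day 1, 17.8% to 22.2% on day 3 and 26% to 33.7% on day 5. ZBTB11 itself (ENSG00000066422.7, chromosome 3, 101648889 to 101677132) had 28.5, 27.9 and 28.7 CPM with DOX, against 54.3, 52 and 52 CPM with DMSO, in sgZBTB11 #2 at day 5. In sgZBTB11 #1 at day 5 it had 38.4, 35.7 and 35 CPM with DOX, against 46.9 and 50.5 CPM with DMSO. For sgNS the values were 52.2, 46.9 and 53.4 CPM with DOX, against 57.3, 51.2 and 60.1 CPM with DMSO, and here the groups overlapped. Its log2 change with DOX at day 5 was -0.42 (adjusted p = 6.54e-05) for sgZBTB11 #1, -0.90 (adjusted p = 4.88e-17) for sgZBTB11 #2 and -0.15 (adjusted p = 0.0323) for sgNS, by edgeR's quasi-likelihood test.

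On the TPM scale, which is per transcript length and allows levels of different genes to be compared, the order of the 10 genes changed with time. By median MCL1 and BAX led at every time, while in 1 library (sgNS with DMSO at 5 hr) BID (75.8 TPM) was above MCL1 (70.6 TPM). The ranges of MCL1 and BAX over the libraries of a time overlapped at each of the 4 times. At 5 hr the order by median was MCL1 (97.2 TPM), BAX (95.1), BID (60.3), BAK1 (24.9), BCL2L1 (21.3), PMAIP1 (12.2), XIAP (7.24), BBC3 (5.13), BCL2L11 (1.80) and APAF1 (1.66). At day 5 it was BAX (48.9 TPM), MCL1 (48.5), BBC3 (17.6), BID (10.7), XIAP (9.98), BCL2L1 (8.83), PMAIP1 (4.79), BAK1 (4.72), APAF1 (4.40) and BCL2L11 (1.24). BBC3 was thus in position 8 at 5 hr and 3 at day 5, and BAK1 in position 4 at 5 hr and 8 at day 5. Of the neighbours in the day 5 order, MCL1 and BBC3, BCL2L1 and PMAIP1, and APAF1 and BCL2L11 did not overlap over the 17 libraries, while the other 6 pairs did. Over all 70 libraries the lowest level was 0.84 TPM for BCL2L11, whose lowest count was 55, and the other 9 genes had at least 71 counts in each library. All 10 passed the filter on low counts in every fit.

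**Figure D1:**
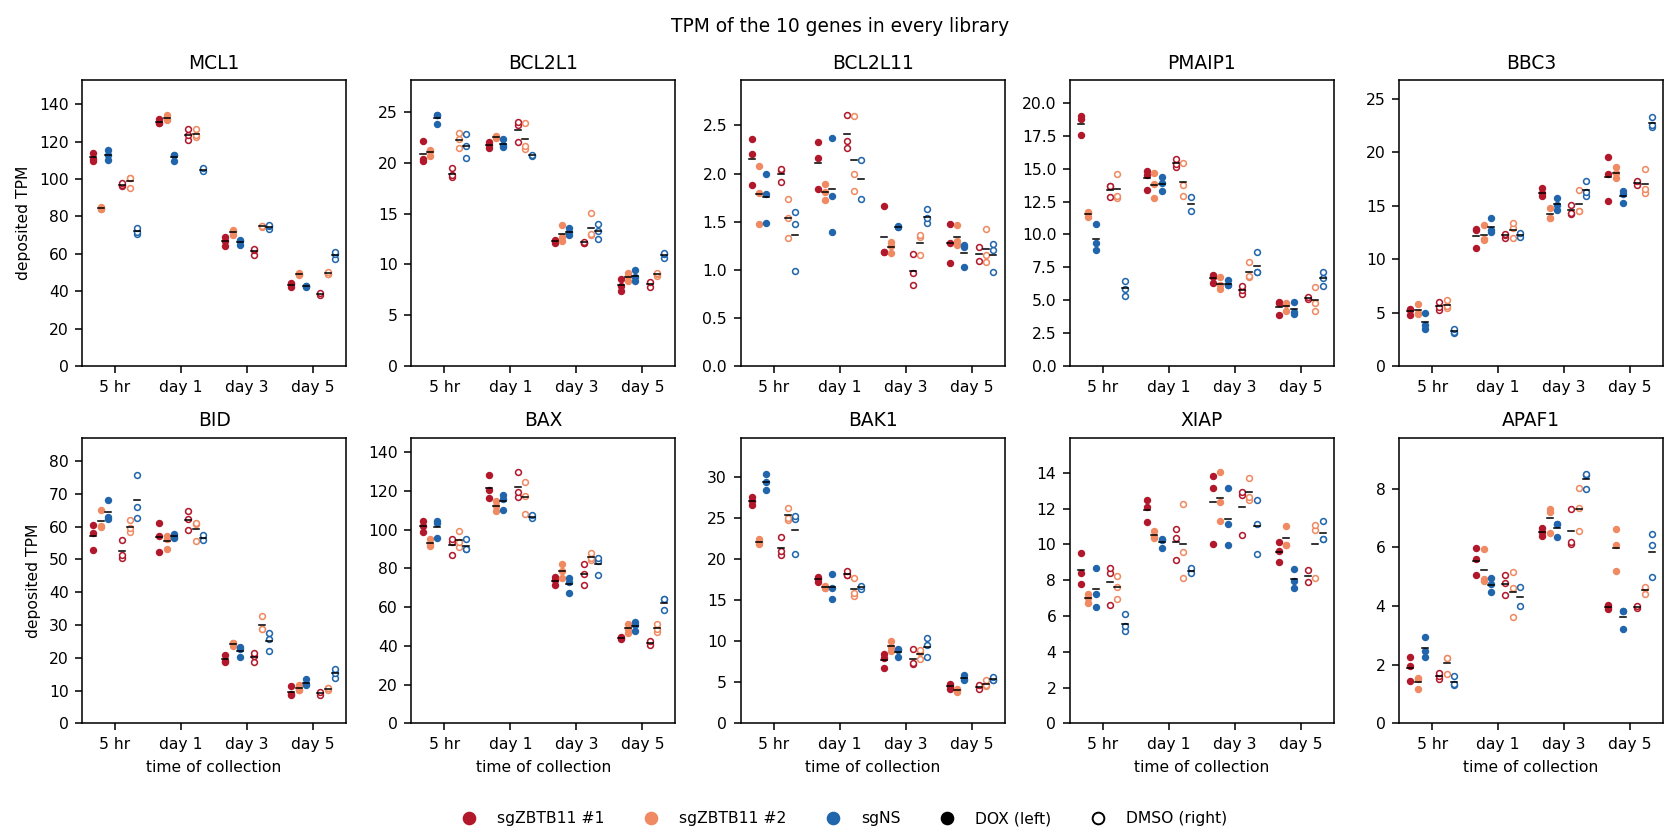
Level of the 10 genes in TPM (vertical axes, linear from 0) in every library at 5 hr and days 1, 3 and 5, with filled points for DOX left of open points for DMSO, colours for the guides and bars for group means. BAK1, BID and BCL2L1 are lowest at day 5, BBC3 is highest there (15.3 to 23.3 TPM), and APAF1 peaks at day 3 (6.13 to 8.49 TPM).

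How the balance moved in cells with DMSO alone is the first comparison. Between day 1 and day 3 both pro-survival genes fell in all 3 guides together with BID, BAK1, BAX, PMAIP1 and BCL2L11, while BBC3 and APAF1 rose in all 3. In edgeR's test with Benjamini-Hochberg adjustment, day 3 against day 1 gave 2 members higher and 8 lower in sgZBTB11 #1, 2 and 7 in sgZBTB11 #2, and 3 and 7 in sgNS. Among all genes tested the calls were 33.8% higher and 35.1% lower in sgZBTB11 #1, 31.7% higher and 33.2% lower in sgZBTB11 #2, and 30.4% higher and 32.7% lower with sgNS, so a change as such was common. The median log2 change of the members was -0.90 for sgZBTB11 #1, -0.72 for sgZBTB11 #2 and -0.64 for sgNS, beside 0.03, 0.02 and 0.03 over all genes. Day 1 against 5 hr gave 4 members higher and 1 lower in sgZBTB11 #1, 5 and 4 in sgZBTB11 #2, and 6 and 3 in sgNS, beside 29% higher and 28.5% lower, 24.5% higher and 26.5% lower, and 22.2% higher and 24.4% lower of all genes changed. Day 5 against day 3 gave 2 and 7, 2 and 7, and 1 and 6, beside 20.9% higher and 22.1% lower, 26% higher and 27.3% lower, and 22.2% higher and 24.5% lower. All adjusted p given are edgeR's unless another tool is named. Some changes are also given on a log2(TPM + 1) scale, where the median of all genes shifted too. In sgZBTB11 #1, sgZBTB11 #2 and sgNS it was 0.14, 0.13 and 0.10 for day 1 against 5 hr. For day 3 against day 1 it was -0.03, 0.02 and 0.15, and for day 5 against day 3 -0.19, -0.20 and -0.11. Neighbouring steps share the libraries of the time between them, so their values are not independent. Time and harvest cannot be told apart, and in bulk RNA fewer cells of a state cannot be told apart from less RNA per cell. The share of mitochondrial transcripts and the summed line markers (8820 to 10570 TPM at 5 hr, 4812 to 6204 at day 5) moved with time as well, and their part in the result was not tested.

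**Figure D2:**
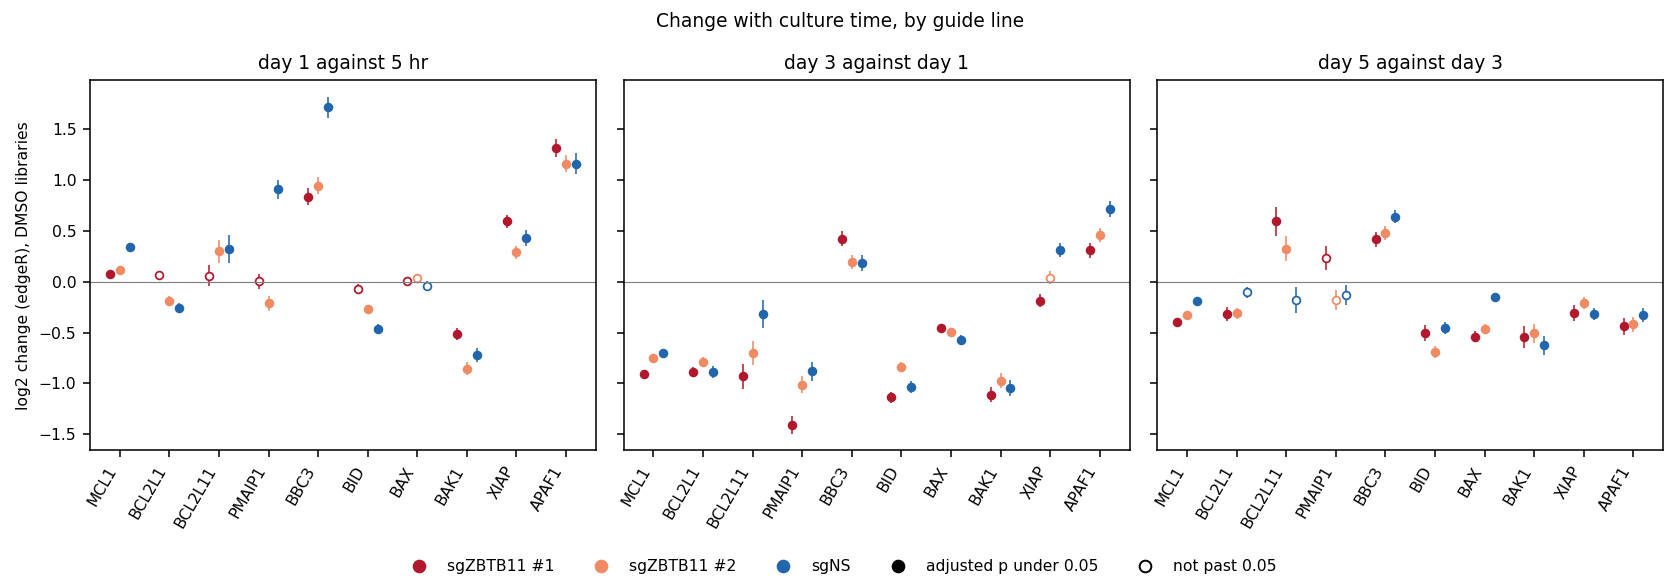
Log2 change of each gene in cells with DMSO, with its standard error, for day 1 against 5 hr, day 3 against day 1 and day 5 against day 3, by guide, with filled points where the adjusted p was under 0.05. In the day 3 step 7 genes lie below 0 in all 3 guides, and BBC3 and APAF1 lie above 0.

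MCL1 (ENSG00000143384.14, chromosome 1, 150574558 to 150579610) encodes a short-lived pro-survival protein that holds BAK and BIM in check. The range was 70.6 to 101 at 5 hr (median 96.3), 104 to 126 at day 1 (median 123), 59.5 to 75.3 at day 3 (median 74.5) and 38.2 to 60.9 at day 5 (median 49.8), in TPM with DMSO. The day 1 libraries were above all others and the day 3 libraries below every day 1 library, while day 3 and day 5 overlapped. Its log2 change from 5 hr to day 1 was 0.08 (sgZBTB11 #1), 0.12 (sgZBTB11 #2) and 0.34 (sgNS), with the largest adjusted p at 0.00284, and with a length trend removed it was -0.05 in sgZBTB11 #1. It then fell, at -0.91 (sgZBTB11 #1), -0.75 (sgZBTB11 #2) and -0.71 (sgNS) for day 3 against day 1 (largest adjusted p = 3.87e-40), and again at -0.39 (sgZBTB11 #1), -0.32 (sgZBTB11 #2) and -0.18 (sgNS) for day 5 against day 3 (largest adjusted p = 1.87e-09). BCL2L1 (ENSG00000171552.14, chromosome 20, 31664452 to 31723963) encodes BCL-xL. Its range was 18.6 to 22.9 at 5 hr (median 21.4), 20.7 to 24 at day 1 (median 21.9), 12.1 to 15 at day 3 (median 12.8) and 7.79 to 11.1 at day 5 (median 9.11), in TPM with DMSO. Its 5 hr and day 1 libraries overlapped, and every day 3 and day 5 library lay below them. Day 3 against day 1 was -0.89 (sgZBTB11 #1), -0.79 (sgZBTB11 #2) and -0.89 (sgNS) (largest adjusted p = 9.22e-26). In the last step it fell by 0.32 in sgZBTB11 #1 and 0.31 in sgZBTB11 #2, and was at -0.11 (adjusted p = 0.126) in sgNS. In the first step it fell by 0.26 in sgNS and by 0.18 in sgZBTB11 #2, where the log2(TPM + 1) scale gave a rise of 0.004.

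The BH3-only genes split. BBC3 (ENSG00000105327.18, chromosome 19, 47220824 to 47232860) encodes PUMA, a target of p53 that binds all pro-survival proteins. The values spanned 3.12 to 6.22 at 5 hr (median 5.46), 12 to 13.4 at day 1 (median 12.3), 14.2 to 17.3 at day 3 (median 15.1) and 16.2 to 23.3 at day 5 (median 17.9), in TPM with DMSO. The 5 hr, day 1 and day 3 libraries did not overlap and rose in that order, and day 5 overlapped day 3. In the first step it rose by 0.84 (sgZBTB11 #1), 0.95 (sgZBTB11 #2) and 1.72 (sgNS) on the log2 scale (largest adjusted p = 2.96e-15). The day 3 step was smaller, at 0.42 (sgZBTB11 #1), 0.19 (sgZBTB11 #2) and 0.19 (sgNS), and the day 5 step was 0.42 (sgZBTB11 #1), 0.48 (sgZBTB11 #2) and 0.64 (sgNS) (largest adjusted p = 1.35e-06). The day 3 calls of BBC3 were lost in sgZBTB11 #2 without sgZBTB11 #2 DMSO at day 1 library 1 (0.18), or sgZBTB11 #2 DMSO at day 3 library 3 (0.155), and in sgNS without sgNS DMSO at day 1 library 1 (0.0919), or sgNS DMSO at day 1 library 2 (0.067), or sgNS DMSO at day 3 library 2 (0.0522), or sgNS DMSO at day 3 library 3 (0.114), with the adjusted p in brackets.

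PMAIP1 (ENSG00000141682.12, chromosome 18, 59899996 to 59904305) encodes NOXA, which binds MCL1 and promotes its breakdown. Its libraries held 5.36 to 14.6 at 5 hr (median 12.8), 11.8 to 15.7 at day 1 (median 14.4), 5.49 to 8.66 at day 3 (median 6.87) and 4.21 to 7.14 at day 5 (median 5.62), in TPM with DMSO. At 5 hr the 3 sgNS libraries with DMSO stood lowest, at 13, 10.2 and 11.2 CPM (TMM-scaled counts relative to library size), below sgZBTB11 #1 with 24.1, 23.7 and 23.8 CPM and sgZBTB11 #2 with 23.2, 26.3 and 23.5 CPM. The first step was 0.0040 (adjusted p = 0.969) with sgZBTB11 #1, -0.21 (adjusted p = 0.0105) with sgZBTB11 #2 and 0.91 (adjusted p = 5.39e-14) with sgNS, and the sgZBTB11 #2 value was 0.06 on the log2(TPM + 1) scale. That call was also lost without sgZBTB11 #2 DMSO at 5 hr library 2 (0.114), or sgZBTB11 #2 DMSO at day 1 library 2 (0.106). Day 3 against day 1 was -1.41 (sgZBTB11 #1), -1.01 (sgZBTB11 #2) and -0.88 (sgNS) (largest adjusted p = 4.47e-14), and day 5 against day 3 was 0.24 (sgZBTB11 #1), -0.18 (sgZBTB11 #2) and -0.13 (sgNS), with no call in any guide (lowest adjusted p = 0.0962).

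BID (ENSG00000015475.19, chromosome 22, 17734138 to 17774665) encodes a protein that caspase-8 cleaves, which links death receptors to mitochondria. Libraries held 50.5 to 75.8 at 5 hr (median 59.6), 55.6 to 64.8 at day 1 (median 59.8), 18.8 to 32.7 at day 3 (median 25.7) and 8.8 to 16.7 at day 5 (median 10.7), in TPM with DMSO. All day 3 libraries lay below all 5 hr and day 1 libraries, and all day 5 libraries below all day 3 libraries. Its log2 change on the count scale was -1.14 (sgZBTB11 #1), -0.84 (sgZBTB11 #2) and -1.04 (sgNS) for day 3 against day 1 and -0.50 (sgZBTB11 #1), -0.69 (sgZBTB11 #2) and -0.46 (sgNS) for day 5 against day 3 (largest adjusted p = 1.46e-08). In the first step it fell by 0.27 in sgZBTB11 #2 and 0.46 in sgNS, and was at -0.07 (adjusted p = 0.193) in sgZBTB11 #1, where the log2(TPM + 1) scale gave 0.23. The spread between its day 1 and day 5 medians was wider in TPM, given above, than in CPM, where the DMSO medians were 63 at day 1 and 21.7 at day 5. The count of BID per unit of TPM, divided by the same value of the typical gene of each library (the median of 10661 genes with a mean of at least 100 counts), follows the transcript length that the estimate used. Over all libraries of a time its median was 0.503 at 5 hr, 0.475 on day 1, 0.601 on day 3 and 0.751 on day 5, and the 5 hr and day 1 libraries overlapped neither those of day 3 nor those of day 5. For BAX, also a short estimate, it was 0.371 at 5 hr and 0.374 at day 5.

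BCL2L11 (ENSG00000153094.26, chromosome 2, 111120914 to 111168445), which encodes BIM, a BH3-only protein that ERK signalling marks for breakdown, was the least abundant of these genes at days 1, 3 and 5. In TPM with DMSO it held 0.99 to 2.05 at 5 hr (median 1.6), 1.74 to 2.61 at day 1 (median 2.21), 0.84 to 1.63 at day 3 (median 1.34) and 0.98 to 1.42 at day 5 (median 1.18). The times overlapped in these libraries, apart from day 1, whose DMSO libraries all lay above those of day 3 and day 5. Day 3 against day 1 was -0.93 (sgZBTB11 #1), -0.70 (sgZBTB11 #2) and -0.32 (sgNS), and day 5 against day 3 was 0.60 (sgZBTB11 #1), 0.32 (sgZBTB11 #2) and -0.18 (sgNS), where the sgZBTB11 #2 value was -0.05 on the log2(TPM + 1) scale. The last step was past the threshold in sgZBTB11 #1 (0.000399) and sgZBTB11 #2 (0.0222), not in sgNS (0.256). In sgNS the day 3 fall was lost without sgNS DMSO at day 1 library 2 (0.518), or sgNS DMSO at day 3 library 1 (0.0527), or sgNS DMSO at day 3 library 2 (0.0601), or sgNS DMSO at day 3 library 3 (0.0601), and in sgZBTB11 #2 the day 5 rise without sgZBTB11 #2 DMSO at day 3 library 2 (0.0828), or sgZBTB11 #2 DMSO at day 5 library 1 (0.0648), or sgZBTB11 #2 DMSO at day 5 library 3 (0.0532). The first step passed in sgZBTB11 #2 at 0.30 (adjusted p = 0.0198) and in sgNS at 0.32 (adjusted p = 0.0437), and was lost in sgZBTB11 #2 without sgZBTB11 #2 DMSO at 5 hr library 2 (0.12), or sgZBTB11 #2 DMSO at day 1 library 1 (0.0645), or sgZBTB11 #2 DMSO at day 1 library 3 (0.0609) and in sgNS without sgNS DMSO at 5 hr library 1 (0.0807), or sgNS DMSO at 5 hr library 2 (0.121), or sgNS DMSO at day 1 library 2 (0.486).

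Of the effectors, which form the pores, BAK1 (ENSG00000030110.14, chromosome 6, 33572552 to 33580276) held 20.5 to 26.2 at 5 hr (median 24.8), 15.5 to 18.5 at day 1 (median 17.2), 7.16 to 10.4 at day 3 (median 8.68) and 4.22 to 5.6 at day 5 (median 4.98), in TPM with DMSO. The 4 times did not overlap, and each later time was lower. It fell, with log2 changes of -0.51 (sgZBTB11 #1), -0.85 (sgZBTB11 #2) and -0.72 (sgNS) in the first step, -1.11 (sgZBTB11 #1), -0.97 (sgZBTB11 #2) and -1.05 (sgNS) in the second and -0.55 (sgZBTB11 #1), -0.51 (sgZBTB11 #2) and -0.63 (sgNS) in the third, with the largest of the 9 adjusted p at 1.59e-05. BAX (ENSG00000087088.21, chromosome 19, 48954875 to 48961798) held 87.1 to 99 at 5 hr (median 93.4), 106 to 129.6 at day 1 (median 117), 71.4 to 88 at day 3 (median 84) and 40.6 to 64.3 at day 5 (median 50.1), in TPM with DMSO. All libraries of a later step lay below those of the step before it from day 1 on. On the count scale its first step was not past the threshold in any guide, at 0.01 (sgZBTB11 #1), 0.03 (sgZBTB11 #2) and -0.04 (sgNS) (lowest adjusted p = 0.51), whereas the log2(TPM + 1) scale gave 0.22 in sgNS. It fell in the second step, with -0.45 (sgZBTB11 #1), -0.50 (sgZBTB11 #2) and -0.57 (sgNS) (largest adjusted p = 2.6e-16), and in the third, with -0.54 (sgZBTB11 #1), -0.46 (sgZBTB11 #2) and -0.15 (sgNS). The third step of BAX in sgNS, -0.15 (adjusted p = 0.00419), lost its call without sgNS DMSO at day 5 library 1 (0.0631).

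Around caspases, APAF1 (ENSG00000120868.15, chromosome 12, 98645290 to 98735433) encodes the scaffold of the apoptosome. It spanned 1.31 to 2.23 at 5 hr (median 1.61), 3.64 to 5.15 at day 1 (median 4.62), 6.13 to 8.49 at day 3 (median 7.35) and 3.93 to 6.46 at day 5 (median 4.62), in TPM with DMSO. The 5 hr, day 1 and day 3 libraries did not overlap and rose in that order, and day 5 overlapped day 1 and day 3. The first step was 1.31 (sgZBTB11 #1), 1.16 (sgZBTB11 #2) and 1.16 (sgNS), the largest rise of the first step among the members in both ZBTB11 guides (largest adjusted p = 1.56e-17). The second was 0.31 (sgZBTB11 #1), 0.46 (sgZBTB11 #2) and 0.71 (sgNS) (largest adjusted p = 8.98e-05), and the third a fall, -0.44 (sgZBTB11 #1), -0.42 (sgZBTB11 #2) and -0.33 (sgNS) (largest adjusted p = 2.05e-05). The gene ANKS1B overlaps APAF1 in the RefSeq annotation, and with the strand setting not given reads of the overlap cannot be told apart, where ANKS1B held 2289 counts over all libraries and APAF1 16218. Processed pseudogenes carry the names of 2 members: BAK1P1 held 117 counts over all libraries beside 32527 for BAK1, and XIAPP3 held 173 beside 34734 for XIAP, so reads could be split between the copies. XIAP (ENSG00000101966.14, chromosome X, 123859708 to 123913972) encodes the caspase inhibitor. Values spanned 5.17 to 8.7 at 5 hr (median 6.93), 8.14 to 12.3 at day 1 (median 9.36), 9.44 to 13.7 at day 3 (median 12.5) and 7.91 to 11.3 at day 5 (median 10.3), in TPM with DMSO. It rose in the first step by 0.59 (sgZBTB11 #1), 0.29 (sgZBTB11 #2) and 0.43 (sgNS) (largest adjusted p = 6.69e-05) and fell in the third, with -0.31 (sgZBTB11 #1), -0.21 (sgZBTB11 #2) and -0.32 (sgNS) (largest adjusted p = 0.00334). The second step was -0.19 (sgZBTB11 #1), 0.04 (sgZBTB11 #2) and 0.31 (sgNS), with no call in sgZBTB11 #2, and the sgZBTB11 #1 value was 0.23 on the log2(TPM + 1) scale. That call was lost without sgZBTB11 #1 DMSO at day 1 library 1 (0.0526).

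Ratios of TPM within a library set pro-survival against pro-death members. MCL1 to BBC3 was 14.4 to 31.8 at 5 hr, 8.15 to 11.8 at day 1, 3.94 to 5.21 at day 3 and 2.2 to 3.1 at day 5, over all libraries of a time, so that no 2 times overlapped. BCL2L1 to BBC3 was 3.14 to 7.15 at 5 hr, 1.61 to 1.99 at day 1, 0.737 to 1.04 at day 3 and 0.377 to 0.586 at day 5, again with no overlap between times. Other pairs moved less: the medians at 5 hr and days 1, 3 and 5 were 7.44, 8.82, 10.4 and 9.96 for MCL1 to PMAIP1, 12.4, 10.7, 9.71 and 7.15 for BCL2L1 to BCL2L11, and 0.239, 0.47, 0.586 and 0.481 for APAF1 to XIAP. The sum of MCL1 and BCL2L1 over the sum of BAX and BAK1 had medians of 1.02, 1.05, 0.952 and 1.03, and over the sum of the 6 pro-death genes of 0.606, 0.649, 0.618 and 0.637. The summed ratios overlapped between all times, with 0.463 to 0.661 at 5 hr and 0.549 to 0.693 at day 5 for the pro-death sum. Taken from CPM per length in place of TPM, the log2 ratio to the pro-death sum moved by over 1 SD in 16 of 24 groups. The other ratios were not checked in this way. These are ratios of mRNA, and no protein was measured.

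**Figure D3:**
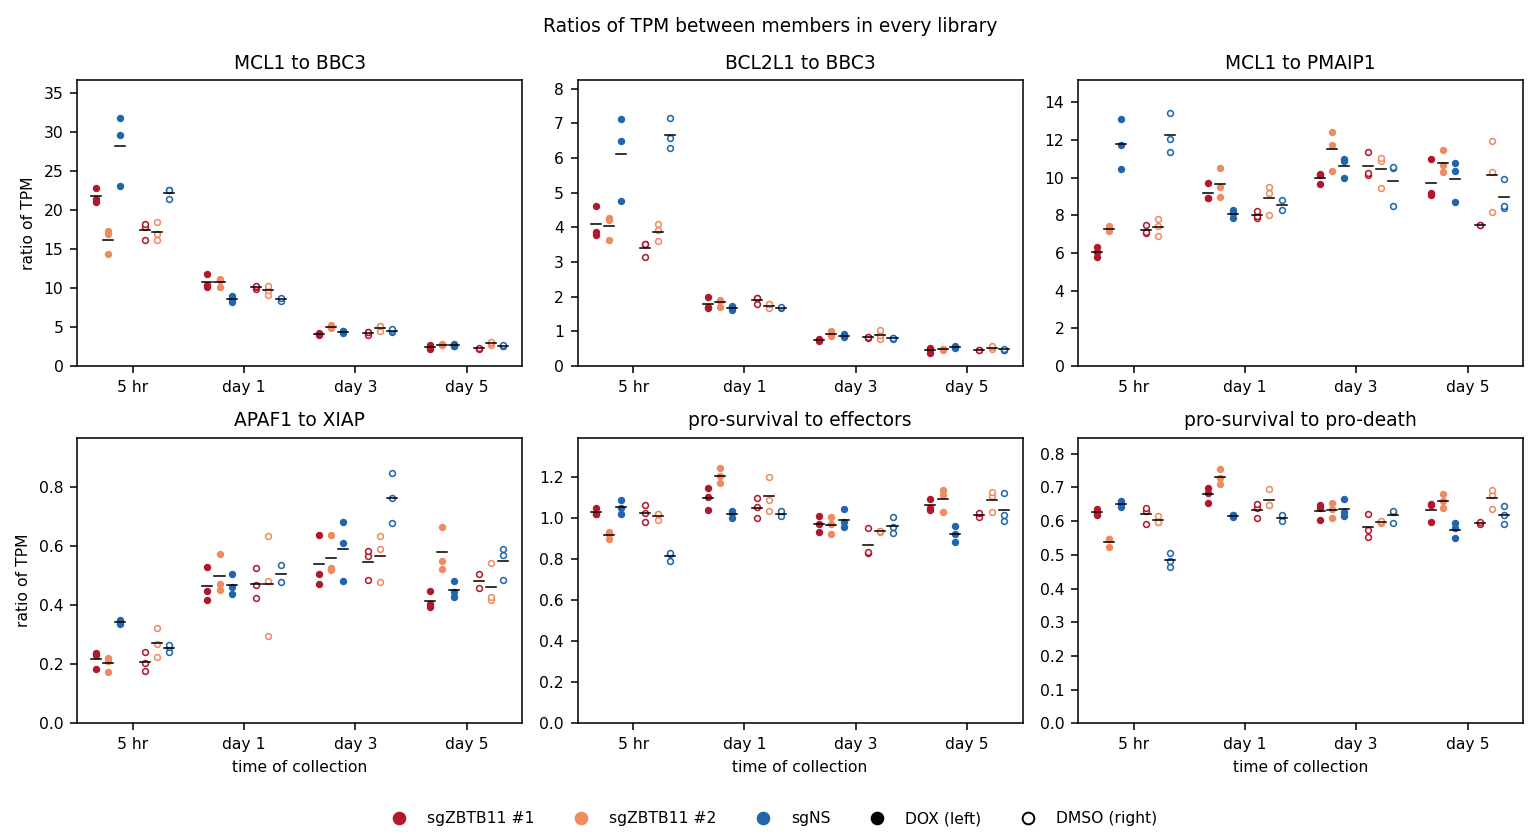
Ratios of TPM within each library by time, with filled points for DOX left of open points for DMSO and colours for the guides. MCL1 to BBC3 falls at each time (medians 19.7, 10.2, 4.46 and 2.66), while the summed ratio to pro-death genes stays between 0.463 and 0.756 in every library.

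With DMSO alone, cells of the ZBTB11 guides were set against sgNS cells of the same time to see how the lines differed without DOX. At 5 hr 8 members differed in sgZBTB11 #1 (5 higher, 3 lower) and 5 in sgZBTB11 #2 (4 higher, 1 lower), beside 15.8% higher and 16.2% lower, and 15.4% higher and 16.8% lower of all genes. PMAIP1 was higher by 1.08 (SE 0.08, adjusted p = 3.68e-14) in sgZBTB11 #1 and 1.09 (SE 0.08, adjusted p = 7.07e-14) in sgZBTB11 #2, and BBC3 by 0.67 and 0.65. MCL1 had 432, 444 and 439 CPM in sgZBTB11 #1 and 442, 438 and 422 CPM in sgZBTB11 #2, against 356, 349 and 352 CPM in sgNS. No library of either ZBTB11 guide reached down to the sgNS range, and the differences of MCL1 were 0.34 (SE 0.03, adjusted p = 1.1e-13) and 0.31 (SE 0.03, adjusted p = 3.61e-12). BID was lower in both, at -0.40 and -0.22, and XIAP higher in both, at 0.25 and 0.33, where sgZBTB11 #1 lost its call without sgZBTB11 #1 DMSO library 1 (0.0572), or sgNS DMSO library 2 (0.0703). BCL2L11 (0.52), BCL2L1 (-0.29) and BAK1 (-0.23) passed in sgZBTB11 #1 and not in sgZBTB11 #2, but the guides were not tested against each other with DMSO. Both differences share the 3 sgNS libraries. Mitochondrial shares with DMSO at 5 hr were 14% to 14.1% (sgZBTB11 #1) and 12.5% to 12.7% (sgZBTB11 #2) against 13.7% to 14.3% (sgNS), and their part was not tested.

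Fewer members were called between the lines at days 1 and 3. At day 1 2 members differed in sgZBTB11 #1, XIAP at 0.39 (adjusted p = 0.000441) and BBC3 at -0.23 (adjusted p = 0.0384), and MCL1 in sgZBTB11 #2 at 0.09 (adjusted p = 0.0372), beside 21.2% and 10.7% of all genes. The BBC3 call was lost without any 1 of the 5 libraries compared (adjusted p up to 0.169), and that of MCL1 without sgZBTB11 #2 DMSO library 3 (0.207), or sgNS DMSO library 1 (0.193), or sgNS DMSO library 2 (0.174). At day 3 4 members were lower in sgZBTB11 #1, beside 9.91% of all genes: MCL1 at -0.15 (adjusted p = 0.000388), PMAIP1 at -0.38 (adjusted p = 0.00501), BCL2L11 at -0.38 (adjusted p = 0.0385) and APAF1 at -0.29 (adjusted p = 0.00152). BCL2L11 lost its call without any 1 of the 6 libraries compared (adjusted p up to 0.142), and PMAIP1 without sgNS DMSO library 2 (0.0909). In sgZBTB11 #2 at day 3 edgeR called 0 of 10, with 2 at an unadjusted p under 0.05, and DESeq2 and limma called 0, beside 3.32% of all genes in edgeR. Beside these differences, mitochondrial transcripts took 10.1% to 10.3% of counts (sgZBTB11 #1) and 10.2% to 10.6% (sgZBTB11 #2) against 12.2% to 12.4% (sgNS) at day 1. On day 3 the shares with DMSO were 21.2% to 22.2% (sgZBTB11 #1) and 17.8% to 17.9% (sgZBTB11 #2) against 18.1% to 18.8% (sgNS). Their part in the result was not tested.

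At day 5 the ZBTB11 lines with DMSO stood below sgNS for 4 members called in both: MCL1, BBC3, BAX and APAF1. The counts were 1 higher and 5 lower in sgZBTB11 #1 and 0 higher and 4 lower in sgZBTB11 #2, beside 10.3% higher and 11.6% lower, and 8.39% higher and 9.63% lower of all genes. MCL1 differed by -0.38 (SE 0.03, adjusted p = 2.37e-14) in sgZBTB11 #1 and -0.12 (SE 0.03, adjusted p = 0.000618) in sgZBTB11 #2. BBC3 differed by -0.23 and -0.29, BAX by -0.31 and -0.25, and APAF1 by -0.42 and -0.30. BCL2L1 (-0.22) and BCL2L11 (0.37) passed in sgZBTB11 #1. Calls were lost for BBC3 in sgZBTB11 #1 without sgZBTB11 #1 DMSO library 2 (0.161), for BCL2L1 without sgZBTB11 #1 DMSO library 2 (0.254), or sgNS DMSO library 1 (0.0539), or sgNS DMSO library 2 (0.0719), for BCL2L11 without any 1 of the 5 libraries compared (adjusted p up to 0.338), and for APAF1 in sgZBTB11 #2 without sgNS DMSO library 3 (0.0974). With DMSO at day 5 mitochondrial transcripts took 33.6% and 33.7% of counts in sgZBTB11 #1 and 31% to 31.5% in sgZBTB11 #2, against 26% to 26.4% in sgNS, and their part in the result was not tested.

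DOX was then set against DMSO within a guide, and the same change was taken net of sgNS. Every group carried dCas9-KRAB, so within a guide the drug and induction of the repressor cannot be told apart. The net change is the mean DOX change of both ZBTB11 guides minus the DOX change of sgNS, so it holds the sgNS change with its sign turned. At 5 hr, when ZBTB11 was at -0.0035 with sgZBTB11 #1, -0.17 with sgZBTB11 #2 and 0.17 with sgNS on the log2 scale, members moved with DOX in all 3 guides. In sgZBTB11 #1 4 were higher and 0 lower, in sgZBTB11 #2 0 and 3, and with sgNS 4 and 2. Among all genes the calls were 17.4% higher and 15.4% lower in sgZBTB11 #1, 8.35% higher and 8.67% lower in sgZBTB11 #2, and 20.9% higher and 20.1% lower with sgNS.

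MCL1 at 5 hr had 468, 455 and 455 CPM with DOX, against 432, 444 and 439 CPM with DMSO, in sgZBTB11 #1. With sgZBTB11 #2 the values were 380.4, 378 and 374 CPM with DOX, against 442, 438 and 422 CPM with DMSO. With sgNS they were 466, 460.1 and 465 CPM with DOX, against 356, 349 and 352 CPM with DMSO. The DOX libraries lay above the DMSO libraries in sgZBTB11 #1 and sgNS and below them in sgZBTB11 #2, without overlap. Its log2 change was 0.07 (adjusted p = 0.0292), which was -0.01 with a length trend removed, for sgZBTB11 #1, -0.19 (adjusted p = 1e-06) for sgZBTB11 #2 and 0.42 (adjusted p = 6.51e-16) for sgNS. The sgZBTB11 #1 call was lost without sgZBTB11 #1 DMSO library 1 (0.0683), or sgZBTB11 #1 DOX library 1 (0.114). Net of sgNS it was -0.48 (SE 0.03, adjusted p = 3.61e-14), and sgZBTB11 #2 differed from sgZBTB11 #1 by -0.26 (SE 0.04, adjusted p = 3.02e-07).

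PMAIP1 at 5 hr had 30.9, 29.5 and 29.9 CPM with DOX, against 24.1, 23.7 and 23.8 CPM with DMSO, in sgZBTB11 #1. The sgZBTB11 #2 libraries held 20.2, 19.6 and 20.7 CPM with DOX, against 23.2, 26.3 and 23.5 CPM with DMSO. The sgNS libraries held 15.5, 16.3 and 18.2 CPM with DOX, against 13, 10.2 and 11.2 CPM with DMSO. As for MCL1, DOX libraries were higher in sgZBTB11 #1 and sgNS and lower in sgZBTB11 #2, without overlap. The log2 changes were 0.34 (adjusted p = 6.44e-05), -0.26 (adjusted p = 0.0069) and 0.56 (adjusted p = 7.71e-07) in that order, and the sgZBTB11 #2 call was lost without sgZBTB11 #2 DMSO library 2 (0.0869). XIAP followed with 0.26 (adjusted p = 0.00166), -0.19 (adjusted p = 0.0525) and 0.51 (adjusted p = 8.89e-08), and BAK1 with 0.20 (adjusted p = 0.00148), -0.17 (adjusted p = 0.0179) and 0.06 (adjusted p = 0.338). The BAK1 call in sgZBTB11 #2 was lost without sgZBTB11 #2 DMSO library 1 (0.101), or sgZBTB11 #2 DOX library 1 (0.0513), or sgZBTB11 #2 DOX library 2 (0.0645).

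In sgNS at 5 hr DOX also raised APAF1 by 0.37 and lowered BID, at -0.21, while BAX was at -0.14 (adjusted p = 0.00554) on the count scale and at 0.14 on the log2(TPM + 1) scale. The median of all genes was -0.0030 on the count scale and 0.17 on the other, so the scales differ in their zero. The BAX call was lost without sgNS DMSO library 2 (0.0595), or sgNS DOX library 2 (0.0625). The net test called 5 of the 10 members, beside 30% of all genes. They were MCL1, PMAIP1 at -0.52 (adjusted p = 5.04e-05), XIAP at -0.47 (adjusted p = 2.33e-05), BID at 0.24 (adjusted p = 0.000372) and BAX at 0.14 (adjusted p = 0.0316), which was -0.08 on the log2(TPM + 1) scale. All genes had a median of -0.13 on that scale. The net BAX call was lost without sgZBTB11 #1 DMSO library 3 (0.067), or sgZBTB11 #1 DOX library 1 (0.0516), or sgZBTB11 #2 DMSO library 1 (0.0525), or sgZBTB11 #2 DOX library 3 (0.054), or sgNS DMSO library 2 (0.141), or sgNS DOX library 2 (0.144). The ZBTB11 guides differed for 4 members, beside 35.1% of all genes: sgZBTB11 #2 was below sgZBTB11 #1 for MCL1, PMAIP1 (-0.60), XIAP (-0.45) and BAK1 (-0.37). Beside these changes, mitochondrial transcripts took 12.2% to 12.4% of counts with DOX against 14% to 14.1% with DMSO in sgZBTB11 #1. The shares were 13.1% to 13.4% against 12.5% to 12.7% for sgZBTB11 #2, and 11.9% to 12.4% against 13.7% to 14.3% for sgNS. Their part in the result was not tested.

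**Figure D4:**
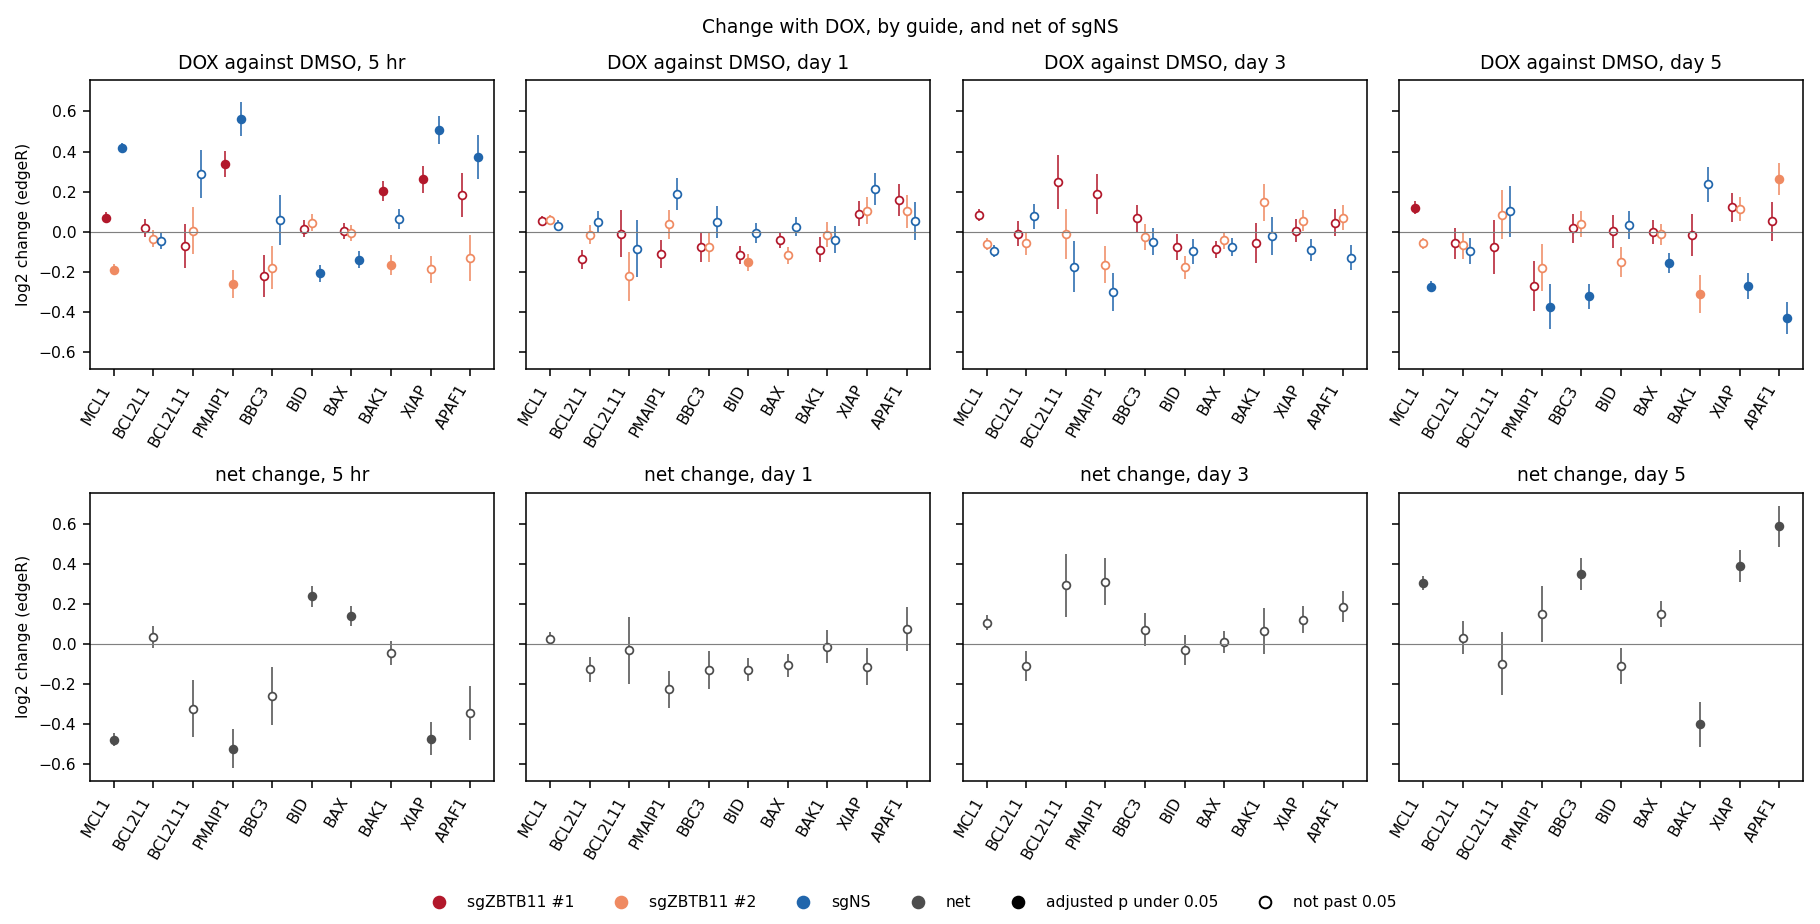
Log2 change of each gene with DOX against DMSO, with its standard error, by guide at the 4 times (upper panels) and net of sgNS (lower panels), with filled points where the adjusted p was under 0.05. Calls cluster at 5 hr and day 5, and at day 3 no point is filled.

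At day 1 DOX moved 1 member in 1 guide by edgeR's test, and at day 3 none. At day 1 edgeR called BID in sgZBTB11 #2, with 55.2, 55.5 and 54.2 CPM with DOX, against 59.2, 63.1 and 63 CPM with DMSO. The DOX libraries lay below the DMSO libraries, and the log2 change was -0.15 (SE 0.04, adjusted p = 0.024), but the call was lost without sgZBTB11 #2 DMSO library 2 (0.116), or sgZBTB11 #2 DMSO library 3 (0.0968), or sgZBTB11 #2 DOX library 1 (0.0609), or sgZBTB11 #2 DOX library 3 (0.103), and DESeq2 did not make it (adjusted p = 0.159). The count at day 1 was thus 0 of 10 in sgZBTB11 #1, 1 in sgZBTB11 #2 and 0 with sgNS, beside 4.84%, 7.88% and 2.19% of all genes. With an unadjusted p under 0.05 there were 3, 3 and 2 in the same order, and DESeq2 and limma called 0 in each. Over all genes DESeq2 called 376, 537 and 172 of 16275, and limma on log2(TPM + 1) called 164, 281 and 73 of 15041. Net of sgNS edgeR called 0 of 10 at day 1, with 3 at an unadjusted p under 0.05, and DESeq2 and limma called 0, beside 0.0737% of all genes.

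At day 3, when ZBTB11 was lower with DOX, at -0.45 in sgZBTB11 #1 and -0.79 in sgZBTB11 #2, edgeR called 0 members in each guide, beside 0.733% of all genes in sgZBTB11 #1, 1.17% in sgZBTB11 #2 and 0.877% in sgNS. With an unadjusted p under 0.05 there were 1, 2 and 3, DESeq2 called 0 in each, and limma called 1 in sgNS, MCL1. Over all genes DESeq2 called 75, 113 and 112 of 16645, and limma on log2(TPM + 1) called 247 of 15825 in sgNS. The net test called 0 of 10, with 3 at an unadjusted p under 0.05 and 0 by DESeq2 and limma, beside 0.493% of all genes. PMAIP1 had the largest net value, 0.31 (SE 0.12, adjusted p = 0.295), and MCL1 was at 0.11 (SE 0.04, adjusted p = 0.247). PMAIP1 had 10.2, 10.3 and 10.5 CPM with DOX, against 9.55, 8.52 and 9.05 CPM with DMSO, in sgZBTB11 #1. In sgZBTB11 #2 it had 9.96, 8.53 and 9.38 CPM with DOX, against 11, 10.3 and 9.99 CPM with DMSO. In sgNS it had 9.49, 9.4 and 9.75 CPM with DOX, against 10.5, 13.5 and 11.3 CPM with DMSO. The DOX libraries of PMAIP1 were above DMSO in sgZBTB11 #1, below it in sgZBTB11 #2 and below it in sgNS. The guides differed for 0 members at day 1 and at day 3 in edgeR, with 0 and 2 at an unadjusted p under 0.05 and 0 by DESeq2 and limma, beside 0.0614% and 0.018% of all genes.

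At day 5 DOX raised 1 of the 10 members in sgZBTB11 #1, raised 1 and lowered 1 in sgZBTB11 #2, and lowered 6 with sgNS. Among all genes the calls were 0.363% higher and 0.773% lower in sgZBTB11 #1, 3% higher and 6% lower in sgZBTB11 #2, and 8.87% higher and 8.47% lower with sgNS. Net of sgNS 4 members were higher, MCL1, BBC3, XIAP and APAF1, and 1 was lower, BAK1, beside 8.95% higher and 10.3% lower of all genes. In each of these 4 the sgNS change was below 0 and larger in size than the change in either ZBTB11 guide.

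MCL1 at day 5 had 206, 204 and 199 CPM with DOX, against 185 and 190.2 CPM with DMSO, in sgZBTB11 #1. With sgZBTB11 #2 the values were 212, 218 and 215 CPM with DOX, against 221, 226 and 222 CPM with DMSO. With sgNS they were 201, 199 and 200.3 CPM with DOX, against 241, 238 and 243 CPM with DMSO. DOX libraries lay above DMSO in sgZBTB11 #1 and below it in sgZBTB11 #2 and sgNS, and the sgNS libraries with DMSO were the highest of the time point. The log2 change was 0.12 (adjusted p = 0.0374) with sgZBTB11 #1, -0.06 (adjusted p = 0.214) with sgZBTB11 #2 and -0.27 (adjusted p = 2.17e-11) with sgNS, and net of sgNS it was 0.30 (SE 0.03, adjusted p = 5.83e-10). The sgZBTB11 #1 call was lost without sgZBTB11 #1 DMSO library 1 (0.511), or sgZBTB11 #1 DMSO library 2 (0.087), or sgZBTB11 #1 DOX library 1 (0.189), or sgZBTB11 #1 DOX library 2 (0.1). The guides differed by -0.18 (SE 0.04, adjusted p = 0.00734), sgZBTB11 #2 minus sgZBTB11 #1, the 1 member called in that test beside 2.58% of all genes, and this was lost without sgZBTB11 #1 DMSO library 1 (0.105).

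BBC3 at day 5 had 30.4, 33.8 and 27.7 CPM with DOX, against 31.3 and 29.3 CPM with DMSO, in sgZBTB11 #1. The sgZBTB11 #2 libraries held 29.5, 30.5 and 29.7 CPM with DOX, against 31.2, 27.2 and 28.5 CPM with DMSO. The sgNS libraries held 29.5, 28.1 and 27.2 CPM with DOX, against 36.5, 35 and 34.4 CPM with DMSO. The groups overlapped in both ZBTB11 guides, and in sgNS all DOX libraries lay under all DMSO libraries. The log2 change was 0.02 (adjusted p = 0.968), 0.04 (adjusted p = 0.808) and -0.32 (adjusted p = 9.8e-05) in that order, and 0.35 (SE 0.08, adjusted p = 0.000696) net of sgNS.

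XIAP at day 5 had 31.7, 29.5 and 28 CPM with DOX, against 27.6 and 27.2 CPM with DMSO, in sgZBTB11 #1. In sgZBTB11 #2 it had 33.1, 31.5 and 32 CPM with DOX, against 29.4, 29.5 and 30.5 CPM with DMSO. In sgNS it had 24.8, 22.5 and 26.1 CPM with DOX, against 27.7, 28.5 and 31.6 CPM with DMSO. DOX libraries were above DMSO in both ZBTB11 guides and below it in sgNS, without overlap. The sgNS change passed, at -0.27 (adjusted p = 0.0015), and the others did not, with 0.12 (adjusted p = 0.53) in sgZBTB11 #1 and 0.11 (adjusted p = 0.292) in sgZBTB11 #2, and the net change was 0.39 (SE 0.08, adjusted p = 0.000191).

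APAF1 at day 5 had 14.3, 14.5 and 14.9 CPM with DOX, against 15 and 13.3 CPM with DMSO, in sgZBTB11 #1. With sgZBTB11 #2 the values were 18.1, 17.5 and 19.3 CPM with DOX, against 14.5, 15.8 and 15.5 CPM with DMSO. With sgNS they were 12.8, 14.7 and 14.3 CPM with DOX, against 18.6, 16.6 and 20.3 CPM with DMSO. The groups overlapped in sgZBTB11 #1, DOX was above DMSO in sgZBTB11 #2, and DOX was below it in sgNS. The log2 change was 0.05 (adjusted p = 0.901), 0.26 (adjusted p = 0.0276) and -0.43 (adjusted p = 6.48e-05) in that order, and the net change, 0.59 (SE 0.10, adjusted p = 1.42e-05), was the largest of the members. The sgZBTB11 #2 call was lost without sgZBTB11 #2 DMSO library 1 (0.141), or sgZBTB11 #2 DMSO library 3 (0.0598), or sgZBTB11 #2 DOX library 1 (0.0685), or sgZBTB11 #2 DOX library 3 (0.134).

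BAK1 at day 5 had 10.1, 11.7 and 10.9 CPM with DOX, against 11.6 and 10.5 CPM with DMSO, in sgZBTB11 #1. The sgZBTB11 #2 libraries held 9.51, 9.34 and 8.75 CPM with DOX, against 12.3, 11.1 and 10.7 CPM with DMSO. The sgNS libraries held 12.9, 14.4 and 13.2 CPM with DOX, against 11.6, 11.4 and 11.1 CPM with DMSO. DOX libraries were below DMSO in sgZBTB11 #2, above it in sgNS and overlapping in sgZBTB11 #1. The log2 change was -0.02 (adjusted p = 0.98), -0.31 (adjusted p = 0.0281) and 0.24 (adjusted p = 0.0552) in that order. The net change was -0.40 (SE 0.11, adjusted p = 0.00759), with an adjusted p of 0.0519 in DESeq2. The sgZBTB11 #2 call was lost without sgZBTB11 #2 DMSO library 1 (0.187), or sgZBTB11 #2 DOX library 1 (0.0525), or sgZBTB11 #2 DOX library 2 (0.0596), or sgZBTB11 #2 DOX library 3 (0.114).

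In sgNS at day 5 DOX also lowered PMAIP1, at -0.37 (adjusted p = 0.0129), and BAX, at -0.16 (adjusted p = 0.0194), calls that were lost for PMAIP1 without sgNS DMSO library 3 (0.0544), or sgNS DOX library 3 (0.108) and for BAX without sgNS DMSO library 2 (0.0778), or sgNS DMSO library 3 (0.11), or sgNS DOX library 1 (0.0586), or sgNS DOX library 3 (0.108). DESeq2 called 0 members in each ZBTB11 guide at day 5 and 4 with sgNS, where edgeR called 1, 2 and 6. Fewer genes were called by DESeq2 as a whole, with 124, 1016 and 2002 of 16809, against 191, 1513 and 2915 in edgeR, in the order sgZBTB11 #1, sgZBTB11 #2 and sgNS. BCL2L1, BCL2L11 and BID had no call with DOX in any guide at day 5, and BID in sgNS was at 0.03 on the count scale and -0.28 on the log2(TPM + 1) scale. All genes had a median of -0.16 there. Mitochondrial transcripts took 32.8% to 33.1% of counts with DOX against 33.6% and 33.7% with DMSO in sgZBTB11 #1. The shares were 31.4% to 31.5% against 31% to 31.5% for sgZBTB11 #2, and 29.4% to 29.8% against 26% to 26.4% for sgNS. Their part in the result was not tested.

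**Figure D5:**
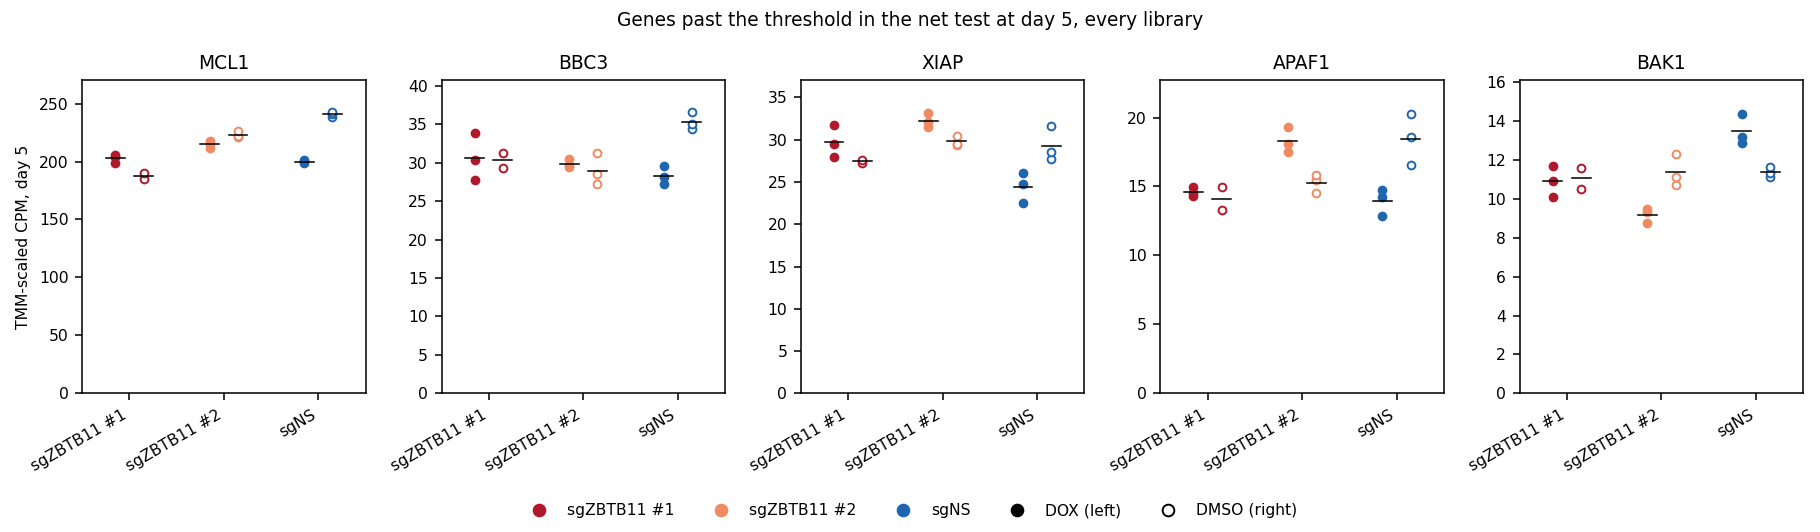
CPM (TMM-scaled, axes from 0) of MCL1, BBC3, XIAP, APAF1 and BAK1 at day 5 in every library, with filled points for DOX left of open points for DMSO, by guide, and bars for group means. In sgNS the DOX libraries lie below DMSO for MCL1 (199 to 201 against 238 to 243 CPM), BBC3, XIAP and APAF1, and above it for BAK1.

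Other genes of the pathway were taken from 6 lists with 76 symbols. Net of sgNS at day 5, 8.95% higher and 10.3% lower of all genes tested were called, and a list count close to these shares is not a result about the list. Of 15 other BCL2 family genes 10 were tested, and net of sgNS at day 5 3 were higher and 0 lower: BCL2L2, a pro-survival relative, at 0.31, BCL2L13 at 0.26 and HRK, a BH3-only gene, at 2.13, whose DMSO libraries at day 5 held 0.02 to 0.27 TPM. In caspases, cytochrome c and their substrates 2 of 13 were higher and 2 lower, among them CASP2 (0.42), CASP8 (0.25) and CYCS, cytochrome c itself (-0.26). BIRC3 (1.29) was the 1 of 9 IAP genes and antagonists, CFLAR (0.17), an inhibitor of caspase-8, the 1 of 11 death receptor genes, and UBE2K (0.18) the 1 of 9 genes of MCL1 turnover called there. For BIRC3 the DMSO libraries at day 5 held only 0.13 to 0.39 TPM. Of 16 regulators of BH3-only genes 4 were higher and 0 lower, with TP63 at 0.43, MDM2, which degrades p53, at 0.29, and ATF3 at 0.63. The list medians at day 5 lay between -0.07 and 0.10, beside 0.00 over all genes. At days 1 and 3 the net test in edgeR called 0 genes of the 6 lists, with 7 and 8 at an unadjusted p under 0.05 of 67 tested at each time.

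With culture time in DMSO more genes of the lists were called, as was so of all genes. For day 3 against day 1 the shares of all genes were 33.8% higher and 35.1% lower (sgZBTB11 #1), 31.7% higher and 33.2% lower (sgZBTB11 #2) and 30.4% higher and 32.7% lower (sgNS), and list counts close to these shares are not a result about the list. For day 3 against day 1, 2 of 10 other BCL2 family genes were higher in each guide, and 6, 6 and 4 lower in sgZBTB11 #1, sgZBTB11 #2 and sgNS, with BMF, a BH3-only gene, at 2.71, 2.01 and 2.46, BNIP3L, a mitophagy receptor, at 0.88, 1.00 and 0.78 and BCL2L12 at -1.09, -1.09 and -1.20. In TPM the DMSO medians of BMF were 0.16 at 5 hr, 0.825 on day 1, 4.59 on day 3 and 5.0 on day 5, and it rose in this step as BBC3 and APAF1 did. Among IAP genes and antagonists 3 of 9 rose in each guide and 6, 5 and 3 fell, with BIRC5, survivin, at -1.63, -1.30 and -1.46 and XAF1, an antagonist of XIAP, at 3.64, 2.41 and 2.61. XAF1 started low, with 0.13 to 0.64 TPM in the DMSO libraries at day 1. Caspases and cytochrome c had 4, 3 and 4 of 13 higher and 9, 7 and 6 lower, and HSPA4 was at -0.89, -0.78 and -0.86. Death receptor genes split at 5, 4 and 3 higher and 5, 5 and 5 lower of 11, with TNFSF10, the ligand TRAIL, at 0.81, 0.92 and 0.63 and the decoy receptor gene TNFRSF10D at -1.03, -0.89 and -0.78. Of 9 genes of MCL1 turnover 6 fell in each guide and 1, 3 and 2 rose, with FBXW11 at -0.85, -0.61 and -0.42 and the ubiquitin ligase gene MARCHF5 at -0.51, -0.34 and -0.31. Regulators of BH3-only genes had 3, 2 and 4 of 16 higher and 11, 10 and 8 lower, with MYC at -1.44, -1.55 and -1.71 and ATF3 at -2.86, -2.75 and -3.83.

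In the first step, day 1 against 5 hr, BIRC3 was at -2.90, -2.79 and -2.69 and BIRC2 at -1.23, -1.38 and -1.21, both ubiquitin ligases that also act in NF-kB signalling, CFLAR at -0.93, -0.84 and -0.83 and MYC at -1.04, -1.13 and -1.15, in the order sgZBTB11 #1, sgZBTB11 #2 and sgNS. BMF was at 1.68, 2.24 and 1.77. In the last step, day 5 against day 3, BIRC5 fell further, at -1.33, -1.50 and -1.30, and DDIT3, the stress factor CHOP, rose at 0.88, 1.00 and 1.13 together with ATF4 at 0.64, 0.59 and 0.55.

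Across the 24 group means the genes whose log2 CPM was most like that of each member were found among 11202 genes with a mean of at least 5 CPM, by Pearson's r, as a description in which groups share libraries' time and line. MCL1 was closest to FAM168B (r = 0.992), PPP1R15B (0.990) and ATP2A2 (0.987), BCL2L1 to HCCS (0.995), ALYREF (0.994) and PSMD13 (0.994), and BBC3 to CHD2 (0.980), ZBTB7B (0.979) and WDR47 (0.975). PMAIP1 was closest to NARS1 (0.968), AARS1 (0.959) and PSAT1 (0.956), BID to ID3 (0.996), PUSL1 (0.996) and BRMS1 (0.995), and BCL2L11 to TUBGCP5 (0.886), EPB41L2 (0.876) and MAPK14 (0.866). BAX was closest to PFN1 (0.992), NDUFB9 (0.992) and RPSA (0.991), BAK1 to RHEB (0.994), SLX9 (0.994) and EIF3J (0.994), XIAP to PREPL (0.975), MIER1 (0.955) and FGD5-AS1 (0.946), and APAF1 to IRF2BPL (0.983), SP1 (0.983) and CCNG2 (0.982).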

How the data were processed

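Poly(A) RNA of 70 libraries was analysed. The authors deposited 2 tables, expected counts per gene and TPM values, and the submitters' processing notes name RSEM and GRCh38.p14. For aligner, annotation, strand setting and RSEM version, details were not given in the sources used here. Reads shared by overlapping genes on either strand therefore cannot be separated. Groups came from the titles. Expected counts, of which 5.13% were not whole (tolerance 0), were rounded. In R 4.3.3, edgeR 4.0.16 was run with filterByExpr, TMM scaling and quasi-likelihood tests (robust). A model held every library of a time, with a mean per group. Another held all 70 libraries for culture time, and its comparisons were between DMSO groups. P-values were adjusted by Benjamini-Hochberg over all genes tested, with a threshold of 0.05. CPM are TMM-scaled. Library totals were 12068842 to 20627642, and between libraries of a group the chi-square of their counts, divided by its degrees of freedom, was 1.33 to 4.93 over 68 pairs, of which 0 were identical.

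Named genes were the 10 members, ZBTB11, up to 3 genes of each list with the smallest adjusted p, and the 3 most like genes of each member. Genes outside this rule were chosen after their values were seen. The members and lists were chosen with earlier results of these data known. The typical gene used for relative lengths was chosen after values were seen. Coordinates and windows before starts are RefSeq's for GRCh38.p14. Only the net test at day 3 was run on simulated counts. These had the same dispersion for every gene and the same change in both ZBTB11 guides, a simpler setting than these data. The other comparisons were not simulated. Alternatives tried were DESeq2 1.42.0, RLE scaling, a replicate block, no filter on low counts, another set of libraries in the fit, limma 3.58.1 on log2(TPM + 1) and on log2(TPM + 0.1) for genes with at least 1 TPM in 3 libraries and without that filter, a length trend removed, and each library left out. A fold change on the log2(TPM + 1) scale understates changes of low genes. One marker gene of the line is not reported here.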

Additional observations from a re-analysis of the deposited data

Results flagged for a closer look

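The DOX change differed between the mean of the ZBTB11 guides and sgNS for 5 members at 5 hr, by edgeR's test of the difference itself. The difference was -0.48 for MCL1, -0.52 for PMAIP1, -0.47 for XIAP, 0.24 for BID and 0.14 for BAX, on the log2 scale, and the BAX value was -0.08 on the log2(TPM + 1) scale, where all genes had a median of -0.13. These values hold the sgNS change with its sign turned. For MCL1 and PMAIP1 the ZBTB11 guides moved in opposite directions with DOX, higher in sgZBTB11 #1 and lower in sgZBTB11 #2. Between the ZBTB11 guides at 5 hr, sgZBTB11 #2 minus sgZBTB11 #1 was -0.60 for PMAIP1, -0.45 for XIAP, -0.37 for BAK1 and -0.26 for MCL1. At day 5 the DOX change net of sgNS was 0.59 for APAF1, 0.39 for XIAP, 0.35 for BBC3, 0.30 for MCL1 and -0.40 for BAK1. For MCL1 the ZBTB11 guides also differed at day 5, by -0.18, sgZBTB11 #2 minus sgZBTB11 #1. Groups held at most 3 libraries, too few for a formal test of single libraries that stand apart. The chi-square per degree of freedom between libraries of a group was highest in pairs with 2 libraries. They were sgZBTB11 #2 DMSO at day 1 library 2 (4.93 and 3.955) and sgNS DMSO at 5 hr library 3 (4.62 and 4.86).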

How the results depend on the processing

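Of 370 results, 10 members in 37 comparisons, 145 were past the threshold, and 94 of them stayed past it in the same direction in every alternative that gave a value. The results that kept direction and side of the threshold numbered 365 with RLE scaling, 352 with DESeq2, 357 with no filter on low counts, 363 with another set of libraries in the fit, 352 with a length trend removed, 302 with limma on log2(TPM + 1) and on log2(TPM + 0.1), 313 with limma without the TPM filter, and 2725 of 2830 with 1 library left out. The replicate block kept 367. With it BCL2L11 in sgZBTB11 #1 with DMSO at day 5 was no longer past the threshold (0.35, adjusted p = 0.0707 in edgeR), XIAP with DOX in sgZBTB11 #2 at 5 hr (-0.19, 0.0412) and BID in sgZBTB11 #1 with DMSO at day 5 (-0.21, 0.0483) newly passed, and same-numbered libraries did not deviate together (1 of 34 pairs above a correlation of 0.1, 11 of 34 best with their own number). On the log2(TPM + 1) scale the median of all genes itself moved by -0.13 net at 5 hr, 0.19 net at day 5, 0.17 with DOX in sgNS at 5 hr and -0.16 at day 5.

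Counts of members called moved as follows, and the cause was not tested. With limma on TPM without the filter the net count at 5 hr was 3, beside 3459 of 37797 genes called in that run. The DOX count at day 1 was 0 in DESeq2 and each limma run and 4 with another set of libraries, and 0 to 2 with 1 library left out. That other set called 1128, 1539 and 527 of 18061 genes in sgZBTB11 #1, sgZBTB11 #2 and sgNS. The DOX count at day 3 was 1 with another set of libraries and in each limma run, and 0 to 1 with 1 library left out. The DOX count at day 5 was 4 in DESeq2, which called 124, 1016 and 2002 of 16809 genes in the same order of guides. The net count at day 5 was 8 with limma at either pseudocount. Over all genes limma called 4849 of 15286 at a pseudocount of 1, 4487 of them higher, and 4844 at 0.1. The edgeR test called 3230 of 16809, 1504 of them higher, so more genes were called on the TPM scale as a whole. The count for the difference between guides at day 5 was 0 in each limma run and 0 to 1 with 1 library left out. The count for lines with DMSO at day 1 was 1 in DESeq2, without the filter and with a length trend removed, 5 with limma at either pseudocount, and 1 to 5 with 1 library left out, and at day 3 it was 2 to 4. Over all genes at day 1 DESeq2 called 1983 (sgZBTB11 #1) and 1023 (sgZBTB11 #2) of 16275. In limma on log2(TPM + 1) they were 4073 and 2447 of 15041.

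Signs turned only with limma on TPM, given at pseudocounts of 1 and 0.1 (without the TPM filter the values are those at 1), and with a length trend removed. They were, with DOX in sgNS, BAX at 5 hr (0.14 and 0.14, and 0.016 with a length trend removed), BCL2L1 at 5 hr (0.17 and 0.17) and BID at day 5 (-0.28 and -0.30). Net of sgNS they were BAX at 5 hr (-0.079 and -0.080) and BID at day 5 (0.33 and 0.35). In sgZBTB11 #1 against sgNS with DMSO they were BAX at day 1 (0.19 and 0.19) and BBC3 at day 3 (-0.17 and -0.18). With culture to day 1 they were BID in sgZBTB11 #1 (0.23 and 0.24), PMAIP1 (0.057 and 0.061) and BCL2L1 (0.0040 and 0.0041) in sgZBTB11 #2 and BAX in sgNS (0.22 and 0.22). Later they were XIAP in sgZBTB11 #1 at day 3 (0.23 and 0.25) and BCL2L11 in sgZBTB11 #2 at day 5 (-0.045 and -0.076). A length trend removed also turned MCL1 in sgZBTB11 #1, with DOX at 5 hr (-0.011) and with culture to day 1 (-0.052). The summed ratio of pro-survival to pro-death genes moved in 16 of 24 groups by over 1 SD when taken from CPM per length. Leaving out 1 library moved 0 of 70, and the other ratios were not checked in these ways. Depth limits the precision most for the members with the lowest counts in a library, BCL2L11 (55), BBC3 (71) and APAF1 (76).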

Other observations

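Over the 24 group means of log2 CPM, as a description in which the points share libraries' time and line, BCL2L1 and BID moved most alike of the members (Pearson's r = 0.992), followed by BID with BAK1 (0.979), BID with BAX (0.970), BCL2L1 with BAK1 (0.969), BCL2L1 with BAX (0.966) and MCL1 with BAX (0.952). PMAIP1 had an r of 0.925 with MCL1. BBC3 and BAK1 moved in opposite directions (r = -0.926), and BBC3 and APAF1 in the same one (0.830). XIAP had an r of 0.717 with APAF1 and of 0.00236 with BAX.

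Among the lists, BCL2L12, a BCL2 relative, had DMSO medians of 75.9 TPM at 5 hr, 86.7 on day 1, 39.7 on day 3 and 25 on day 5. BAD, a BH3-only gene, had 40.3, 48.7, 32 and 21.9 TPM in the same order, and the pro-survival gene BCL2L2 had 9.82, 12.2, 12.1 and 10.4 TPM. BCL2 itself had 0.63, 0.985, 0.46 and 0.24 TPM, and BCL2A1 had a median of 0 TPM at each time. BAD, BCL2 and BCL2A1, and the levels given here, were chosen after values were seen.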
